A study of Mus musculus with 24 samples.

Results

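Liver tumours collected 48 h after a second dose of the mTORC1 inhibitor RMC-6272 were compared with tumours collected 24 h after it, to see which transcript programmes had moved back toward the untreated level and which had not. The comparison took the 3 RMC-6272 samples at 48 h and the 3 at 24 h, 6 of the 24 samples of the series, matched to their columns of the deposited expression table by sample code. Of 54403 genes kept by name, 12363 had at least 1 FPKM (fragments scaled by transcript length and by the mapped reads of the sample) in at least 2 of the 6 samples and were tested. All mice were FVB/N and carried Lap-tTA and Tet-O-MYC, so a human MYC transgene was switched on in hepatocytes, through the liver promoter that drives tTA, when doxycycline was withdrawn at 4 weeks of age. After a further 4 to 5 weeks tumour volumes were followed by MRI, and mice with hepatocellular carcinoma were enrolled. RMC-6272 was given at 10 mg/kg into the peritoneum once a week, with the second dose 7 days after the first, and the frozen tumour pieces taken at 24 or 48 h are the samples described here. The reference was 3 tumours given the vehicle (Transcutol, Solutol HS 15 and water) by the same route and collected at 24 h. No vehicle sample at 48 h was analysed here, so a difference from vehicle at 48 h also holds any effect of the collection time. MYC was on in every one of these mice. The same compound was also sampled in 3 tumours at 72 h and in 1 tumour at 12 h.

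mTOR complex 1 is the kinase complex that couples growth factor and amino acid signals to protein synthesis, and it keeps 4EBP1 phosphorylated so that the cap-binding factor eIF4E stays free to start translation. Bi-steric inhibitors join a rapamycin-like part to an active-site inhibitor of mTOR, which gives strong inhibition of complex 1 with less effect on complex 2. MYC drives ribosome production, nucleotide synthesis and cell division, and depends on cap-dependent translation. mTORC1 also promotes sterol and fatty acid synthesis through SREBP, and restrains lysosome and autophagy genes by keeping TFEB and TFE3 out of the nucleus.

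The 6 samples were hepatocyte-derived tumour tissue by their markers. Alb (albumin) ranged from 2284 to 12906 FPKM over them, Hnf4a, the hepatocyte nuclear receptor, from 67.5 to 134, Afp (alpha-fetoprotein, a fetal liver and tumour marker) from 1294 to 10102, and Gpc3 from 21.4 to 48.6. Low FPKM values behaved as whole multiples of 1 read in 20 of the 24 samples, which put the depth of these 6 samples at 33.0 to 38.5 M reads. The 4 doxycycline and RMC-4627 samples did not show such steps. Of the 6 samples, 24 h replicate 2 stood apart from its own group, and each 48 h sample was closest to a sample outside its group.
The 48 h replicate 1 had a Spearman rho of 0.974 with the 24 h replicate 3 over all genes tested, above every pair within 48 h (0.939 to 0.944). The 48 h replicate 2 was closer to vehicle replicate 2 (0.953) than to either other 48 h sample. The 48 h replicate 3 was likewise closer to vehicle replicate 1 (0.958). The 24 h replicate 2 had the lowest correlation within its group, 0.912, against 0.973 for the other pair of that group. Among the 6 samples, 24 h replicates 2 and 3 share a code prefix with 48 h replicate 3, 48 h replicates 1 and 2 share another, and 24 h replicate 1 has its own, so the 48 h replicates 1 and 2 have no 24 h sample of their own prefix. Whether each sample is a separate animal is not stated in the labels, so the p-values measure the spread between samples. In bulk tissue, fewer cells of a type and less RNA per cell cannot be told apart.

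Between 24 and 48 h the cell cycle genes as a body were higher, and the autophagy, plasma protein and acute phase genes were lower, each back in the direction of vehicle. Cholesterol synthesis genes had returned in 1 of the 3 samples at 48 h and not in the other 2. The mitotic and S phase lists still had medians below vehicle in all 3 samples at 48 h. A small set of genes that includes Igfbp5, Abcd4, Rap1gap and Scimp still differed from vehicle at an adjusted p under 0.05. The MHC class II genes were farther from vehicle than at 24 h in 2 of the 3 samples. With limma on log2(FPKM + 1) over all 24 samples, 0 of 12363 genes passed a Benjamini-Hochberg adjusted p under 0.05 (0%), and the smallest adjusted p was 0.0779, shared by 42 genes.

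At an unadjusted p under 0.05, 951 genes were higher at 48 h (7.69%) and 613 were lower (4.96%). All 3 samples at 48 h lay above all 3 at 24 h for 1769 genes (14.3%), and below them for 1150 (9.3%). Without the doxycycline and RMC-4627 samples, in a fit of 20 samples, 113 genes passed: 82 rose (0.663%) and 31 fell (0.251%). Below, "rose" and "fell" refer to that fit, and p-values from it are named. Each SE given after ± is that of the 24-sample fit, also beside a p-value over 20 samples. The 113 calls rested on single samples. They became 1 without 24 h replicate 1, 5 without 24 h replicate 2, and 0 without 48 h replicate 2 or 3. They became 404 without 24 h replicate 3 and 794 without 48 h replicate 1, the pair of samples that resembled each other across the groups.

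Against vehicle, RMC-6272 at 24 h had 1422 genes higher (11.5%) and 1676 lower (13.6%) in the 24-sample fit. At 48 h only Rap1gap and Scimp were higher (0.0162%) and Igfbp5 lower (0.00809%), although 1924 genes had an unadjusted p under 0.05. Of the 113 genes that changed from 24 to 48 h in the 20-sample fit, 112 had also passed in the other direction at 24 h against vehicle, and the other was Itga6. The 2 comparisons share the 24 h samples, so this count is a description. A second choice of genes rested on the difference between 72 h and vehicle, among the same 12363 genes and in the same fit. In the 3 samples at 72 h, 948 genes were lower than vehicle (7.67%) and 784 higher (6.34%). Among them, 72 h replicate 3 had 17.6 M reads, the lowest depth of the 20 samples with read steps. Its median against vehicle was 7.97 for 4 neutrophil and 6.36 for 5 red cell markers. In replicates 1 and 2 these were 2.60 and 1.61, and 0.31 and 0.89. The 2 sets were not redrawn without it.

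Of the 948 genes lower at 72 h, 880 were higher at 48 h than at 24 h, with a median log2 difference of 0.38. An unadjusted p under 0.05 was reached by 372 of them upward and 4 downward. Of the 784 genes higher at 72 h, 672 were lower at 48 h than at 24 h (median -0.35, with 166 downward and 5 upward at that p). The median over all genes tested was 0.00. Most genes of either set thus lay, at 48 h, on the vehicle side of their 24 h level.

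**Figure D1:**
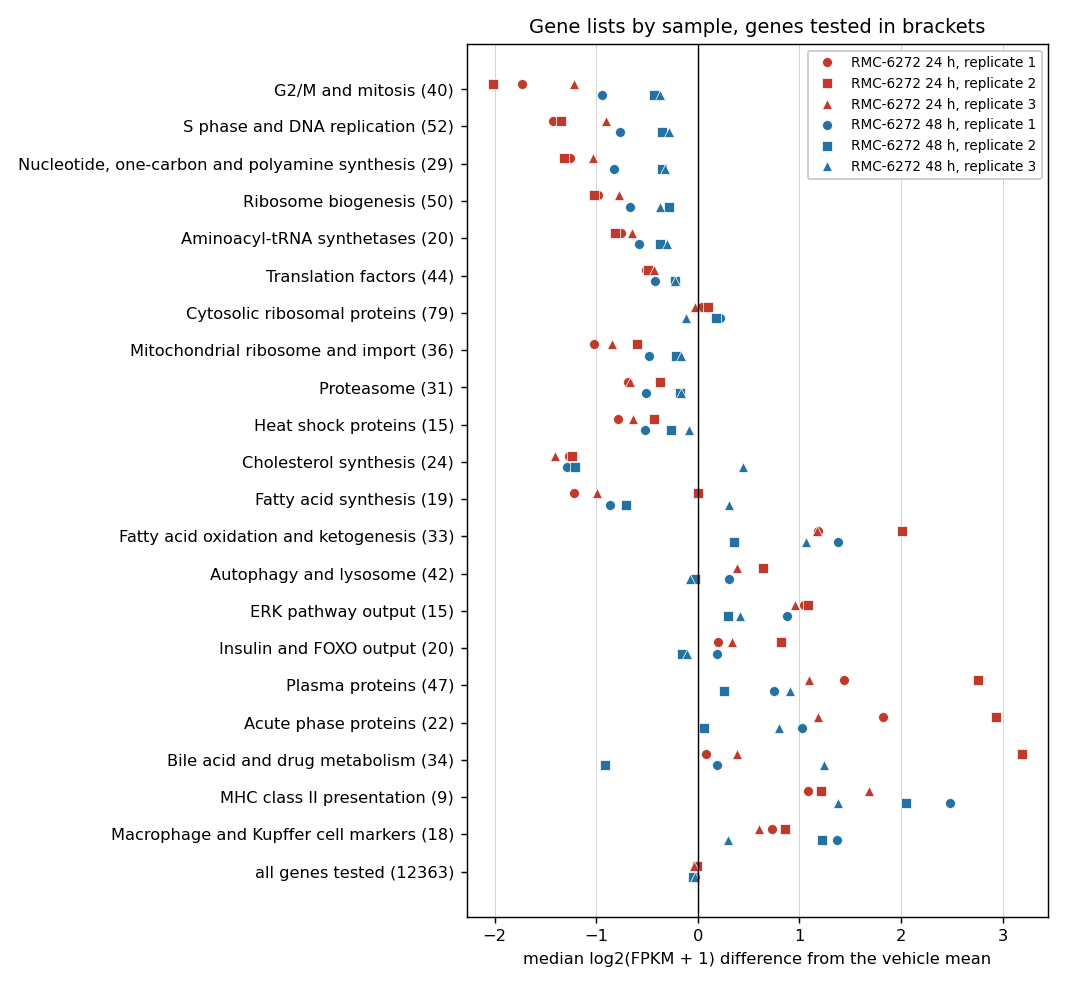
Median log2(FPKM + 1) difference from the vehicle mean for each gene list (rows, with the number of genes tested) in each RMC-6272 sample at 24 h (red) and 48 h (blue), with a marker shape for each replicate. The 48 h samples lie nearer 0 than the 24 h samples for the cell cycle lists, while for cholesterol synthesis 48 h replicates 1 and 2 lie beside the 24 h samples and replicate 3 lies above vehicle.

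The mitotic genes had the largest median difference of the growth lists. All 40 genes of the G2 and mitosis list were higher at 48 h on average, by 0.29 to 1.56 on the log2 scale with a median of 1.03. Of them 35 had an unadjusted p under 0.05, against 7.69% of all genes, and in 34 the groups did not overlap, against 14.3%. The list's median below vehicle was -1.73, -2.02 and -1.22 in 24 h replicates 1 to 3, and -0.94, -0.44 and -0.37 in the 48 h replicates. The 48 h replicates 2 and 3 had thus come within 0.44 of vehicle, and replicate 1 lay between them and the 24 h samples. Without 24 h replicate 2 the number at an unadjusted p under 0.05 was 28, and without 48 h replicate 1 it was 36. In the 20-sample fit 11 of the 40 rose, 34 without 48 h replicate 1 and 30 without 24 h replicate 3. The count was 0 without 24 h replicate 1 or 2, or 48 h replicate 2 or 3. Within the shared code prefix (24 h replicates 2 and 3, 48 h replicate 3) all 40 were higher, with a median of 1.22.

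Aurka, the Aurora kinase of the spindle poles, had the smallest p of all genes tested. It was at 43.8, 52.2 and 42.6 FPKM in the vehicle samples, 11.1, 9.61 and 16.2 at 24 h and 24.9, 39.1 and 41.3 at 48 h. The groups did not overlap, and 48 h replicates 2 and 3 lay just under the lowest vehicle sample. The difference was 1.44 ± 0.23 (SE) on the log2 scale, with a 95% interval of 0.96 to 1.92 and an adjusted p of 0.0779 in limma over 24 samples and 0.0403 over 20. Birc5 (survivin), like Aurkb and Incenp a subunit of the chromosomal passenger complex, was at 52.7, 64.9 and 67.9 in vehicle, 12.1, 12.7 and 22.6 at 24 h and 33.1, 59.9 and 51.3 at 48 h. Its partner kinase Aurkb went from 5.36, 5.44 and 8.82 at 24 h to 15.03, 21.1 and 23.6 at 48 h, and Incenp from 7.76, 7.11 and 13.1 to 17.2, 24.6 and 23.4. These 3 subunits rose together, by 1.56 ± 0.29, 1.48 ± 0.28 and 1.17 ± 0.23, with adjusted p of 0.0403, 0.0403 and 0.0407 over 20 samples. Ccna2 (cyclin A2) rose from 7.88, 7.92 and 14.4 to 20.4, 35.6 and 34.4 FPKM, still below its vehicle values of 48.98, 41.6 and 49.7. Pbk, a mitotic kinase, had the largest rise of the genes that passed (1.68 ± 0.52), from 4.61, 5.83 and 12.3 to 16.1, 30.3 and 30.7. Mki67, the proliferation marker, was at 23.9, 20.02 and 24.9 in vehicle, 7.46, 5.86 and 11.1 at 24 h and 12.8, 20.2 and 20.6 at 48 h without overlap, but did not pass in either fit (adjusted p 0.263 and 0.0633).

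**Figure D2:**
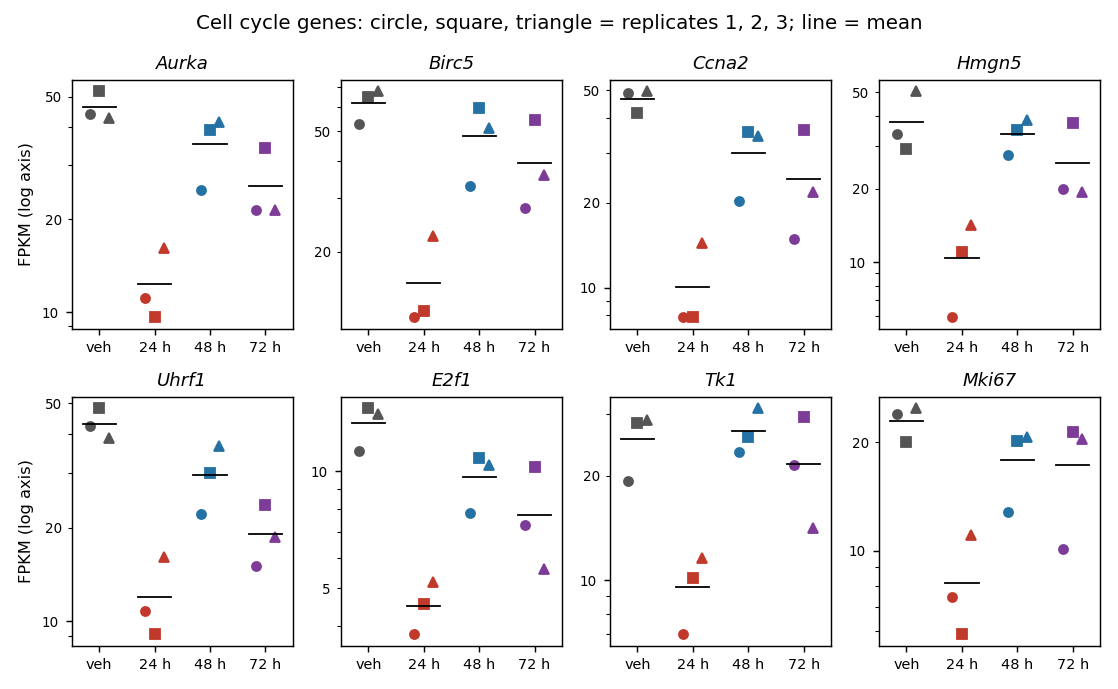
FPKM of 8 cell cycle genes (log axis) in each vehicle, 24 h, 48 h and 72 h sample, with the mean as a line. In all 8 genes the 3 samples at 48 h lie above the 3 at 24 h, and replicate 1 (circle) is the lowest of the 48 h samples.

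The S phase and DNA replication genes moved the same way by a smaller amount. All 52 were higher at 48 h, with a median of 0.77. An unadjusted p under 0.05 was reached by 41, against 7.69% of all genes, and 43 showed no overlap, against 14.3%. Their median below vehicle was -1.42, -1.35 and -0.91 at 24 h and -0.77, -0.35 and -0.29 at 48 h. E2f1, the transcription factor that drives S phase entry, was at 11.3, 14.5 and 14.02 FPKM in vehicle, 3.81, 4.56 and 5.19 at 24 h and 7.83, 10.8 and 10.4 at 48 h. It rose by 0.95 ± 0.20 (adjusted p 0.0446 over 20 samples). Uhrf1, which brings DNA methylation maintenance to replicated DNA, went from 10.8, 9.08 and 16.1 to 22.2, 29.8 and 36.4, against 42.5, 48.3 and 38.6 in vehicle. Tk1, thymidine kinase of the nucleotide salvage pathway, lay in or above the vehicle range at 48 h: 19.2, 28.4 and 29.01 in vehicle, 6.96, 10.1 and 11.6 at 24 h and 23.4, 25.8 and 31.3 at 48 h. Its mean at 48 h differed from vehicle by 0.08 on the log2 scale. Rpa2 (single-strand DNA binding) and Pola2 (DNA polymerase alpha) also rose, by 0.95 ± 0.20 and 0.88 ± 0.19 (adjusted p 0.0444 and 0.0403 over 20 samples). In all, 12 of the 52 rose in the 20-sample fit, 40 without 48 h replicate 1, 30 without 24 h replicate 3, and 0 without any of the other 4 samples left out in turn.

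Short motifs in the promoters of these genes are shown because members of the lists moved together. RefSeq windows (build GRCm38.p6) of 250 bases before to 50 after an annotated start were found for 33 of the 40 mitotic genes, 41 of the 52 S phase genes, 33 of the 42 autophagy and lysosome genes and 17 of the 24 cholesterol genes tested. The letters TTTGAA or the complement TTCAAA, known as the cell cycle homology element, stood in a window of 24 of the 33 mitotic genes (72.7%), against 14.3% of the 9054 tested genes and 20.2% of all 27025 genes with a window. The E2F-type letters TTTCGCGC, on either strand, stood in 8 of the 41 S phase genes (19.5%), against 0.773% of the tested genes and 0.374% of all. The palindrome CACGTG stood in 17 of the 33 autophagy and lysosome genes (51.5%), against 12.1% and 8.09%. It also stood in 6 of 16 p53 targets (37.5%). The aminoacyl-tRNA synthetases, a list with a higher median at 48 h, held it in 4 of 12 genes (33.3%). CCAAT, on either strand, stood in 16 of the 17 cholesterol genes (94.1%), against 42.7% and 41.1%. It was as frequent in 17 of 18 ER stress genes (94.4%), a list with a lower median at 48 h. It also stood in 28 of the 33 mitotic genes (84.85%), so it was not particular to the cholesterol list. Among the 65 genes with a window of the 82 that rose, TTTGAA stood in 21 (32.3%) and TTTCGCGC in 3 (4.62%). CACGTG stood in 10 of these 65 (15.4%), and in 4 of the 25 with a window of the 31 that fell (16%). A match says only that these letters are present. The stretches below are written 5′ to 3′ on the strand of the gene, with the motif or its complement on the other strand (GCGCGAAA, ATTGG) in capitals.
Aurka: aggagaaccTTTGAAttgtaacgg
Bub1b: caagagacgttaaaTTTGAAactt
Cdk1: cgcggcgagTTTGAAactgctggc
Plk1: agcgccgcgTTTGAAttcggggag
Uhrf1: gagtcgggTTTCGCGCgcccaggc
Mcm6: tgcttttgGCGCGAAAagtgcgtg
Atg14: acaaaatccCACGTGactggccct
Ctsa: gcagatgctCACGTGaccagagct
Cln3: gggtactgtCACGTGacccccaac
Mcoln1: cgccccgctCACGTGaccgcggcg
Idi1: caaggtgccATTGGctggcgaccg
Nsdhl: tgagcgtcaATTGGttgcgccaga
The mitotic stretches lie at chr2:172370524-172370547, minus strand (Aurka), chr2:118598237-118598260, plus strand (Bub1b), chr10:69352913-69352936, minus strand (Cdk1) and chr7:122159456-122159479, plus strand (Plk1). The S phase stretches lie at chr17:56304120-56304143, plus strand (Uhrf1) and chr1:128359796-128359819, minus strand (Mcm6). Those of the autophagy and lysosome genes lie at chr14:47568421-47568444, minus strand (Atg14), chr2:164833769-164833792, plus strand (Ctsa), chr7:126583343-126583366, minus strand (Cln3) and chr8:3500465-3500488, plus strand (Mcoln1). Those of the cholesterol genes lie at chr13:8885583-8885606, plus strand (Idi1) and chrX:72918520-72918543, plus strand (Nsdhl).

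Genes that supply the materials of growth were also higher at 48 h. Of the 29 genes of nucleotide, one-carbon and polyamine synthesis, 28 were higher at 48 h, with a median of 0.69. Of them 18 had an unadjusted p under 0.05, against 7.69% of all genes, and 26 showed no overlap, against 14.3%. The count at that p was 10 without 48 h replicate 2. Amd1, which makes the aminopropyl donor of polyamine synthesis, rose from 14.9, 13.7 and 20.8 to 26.1, 43.8 and 40.8 FPKM, by 1.11 ± 0.27 with an adjusted p of 0.0499 over 20 samples. Mthfd2, the mitochondrial folate enzyme that feeds purine synthesis, remained far below vehicle. It was at 26.3, 32.3 and 27.5 in vehicle, 1.0996, 1.397 and 1.74 at 24 h, 2.61, 8.896 and 9.64 at 48 h and 2.42, 17.7 and 7.76 at 72 h. The 48 h samples lay above the 24 h samples but all below every vehicle sample, with a difference from 24 h of 1.59 ± 0.45 (adjusted p 0.143) and from vehicle of -2.03 ± 0.45 (adjusted p 0.068). Aldh18a1 (proline synthesis) and Asns (asparagine synthetase) were partway back, Aldh18a1 at 31.7, 26.9 and 30.1 in vehicle, 5.54, 4.57 and 8.05 at 24 h and 8.41, 14.7 and 16.1 at 48 h. The wider list of 24 ATF4 target and amino acid transport genes was mixed, with 13 higher and 11 lower at 48 h and a median of 0.12.

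Of the 50 ribosome biogenesis genes tested, 49 were higher at 48 h (median 0.48). Of these genes 19 had an unadjusted p under 0.05 (against 7.69% of all) and 30 showed no overlap (against 14.3%). Their median below vehicle was -0.98, -1.03 and -0.78 at 24 h and -0.67, -0.29 and -0.37 at 48 h, so 48 h replicate 1 was close to the 24 h replicate 3. The count at that p depended on single samples, at 7 to 10 without 24 h replicate 1 or 2, or 48 h replicate 2 or 3. Nop10, Gar1 and Dkc1 encode subunits of the complex that makes pseudouridine in ribosomal RNA. Nop10 was at 95.9, 172 and 166 FPKM in vehicle, 41.6, 67.5 and 63.3 at 24 h and 108, 156 and 130.2 at 48 h. Gar1 was at 22.5, 20.8 and 25.6 and then 35.8, 42.8 and 45.5, and Dkc1 at 15.3, 13.6 and 24.4 and then 24.99, 34.6 and 34.8. In none of the 3 did the groups overlap, with adjusted p of 0.0509, 0.0513 and 0.0648 over 20 samples. The list member that rose was Rrs1, a ribosome assembly factor, by 0.78 ± 0.22 (adjusted p 0.0499).

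Genes of the translation machinery had small median differences between the 2 times. The 79 cytosolic ribosomal protein genes, whose messages mTORC1 controls at translation, had medians within 0.22 of vehicle in all 6 samples. Their median difference from vehicle was 0.04, 0.10 and -0.02 at 24 h and 0.22, 0.17 and -0.12 at 48 h. None of the 79 had an unadjusted p under 0.05 between 24 and 48 h, and the groups did not overlap in 2. Among 44 translation factors, 33 were higher at 48 h with a median of 0.16. An unadjusted p under 0.05 was reached by 5, all higher, beside 7.69% of all genes. That count was 1 without 24 h replicate 1 or 48 h replicate 2 or 3. Within the shared code prefix 28 were higher and 16 lower. Eif4e, the cap-binding factor, was 1 of 2 that rose. It was at 44.1, 39.4 and 41.7 FPKM in vehicle, 13.2, 15.5 and 18.1 at 24 h and 20.9, 38.1 and 33.1 at 48 h, a rise of 0.90 ± 0.31 (adjusted p 0.0496 over 20 samples and 0.229 over 24). Eif4ebp1, which encodes 4EBP1, was at 51.8, 113 and 75.3 in vehicle, 46.7, 46.6 and 41.4 at 24 h and 55.4, 65.4 and 61.6 at 48 h, again without overlap (difference 0.43 ± 0.29, adjusted p 0.596). Mtor itself was at 8.21, 6.88 and 6.45 at 24 h and 5.25, 4.48 and 5.17 at 48 h, against 5.72, 5.05 and 5.03 in vehicle, and did not pass. The 45 genes for mTOR pathway components and regulators had a median difference of -0.03, with 3 higher and 3 lower at an unadjusted p under 0.05.

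Of 36 mitochondrial ribosome and import genes, 34 were higher at 48 h (median 0.47, 11 at an unadjusted p under 0.05), and of 31 proteasome genes 29 were (median 0.25, 5 at that p). Of all genes 7.69% were higher at that p. Timm17a, a subunit of the inner membrane import channel, was at 11.7, 17.9 and 13.6 FPKM in vehicle, 7.11, 8.32 and 7.23 at 24 h and 10.6, 13.3 and 10.96 at 48 h. Of the 15 heat shock genes, 5 had an unadjusted p under 0.05, all higher at 48 h. The heat shock count was 0 without 48 h replicate 3 and 1 without 24 h replicate 1, and the mitochondrial count was 3 without either. The proteasome count was 1 without 24 h replicate 1. Hsp90aa1, the inducible cytosolic HSP90, was at 435, 355 and 419 in vehicle, 110.5, 146 and 169 at 24 h and 185, 324 and 335 at 48 h (difference 0.95 ± 0.34, adjusted p 0.07 over 20 samples). None of these 3 lists had a member that passed in either fit.

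**Figure D3:**
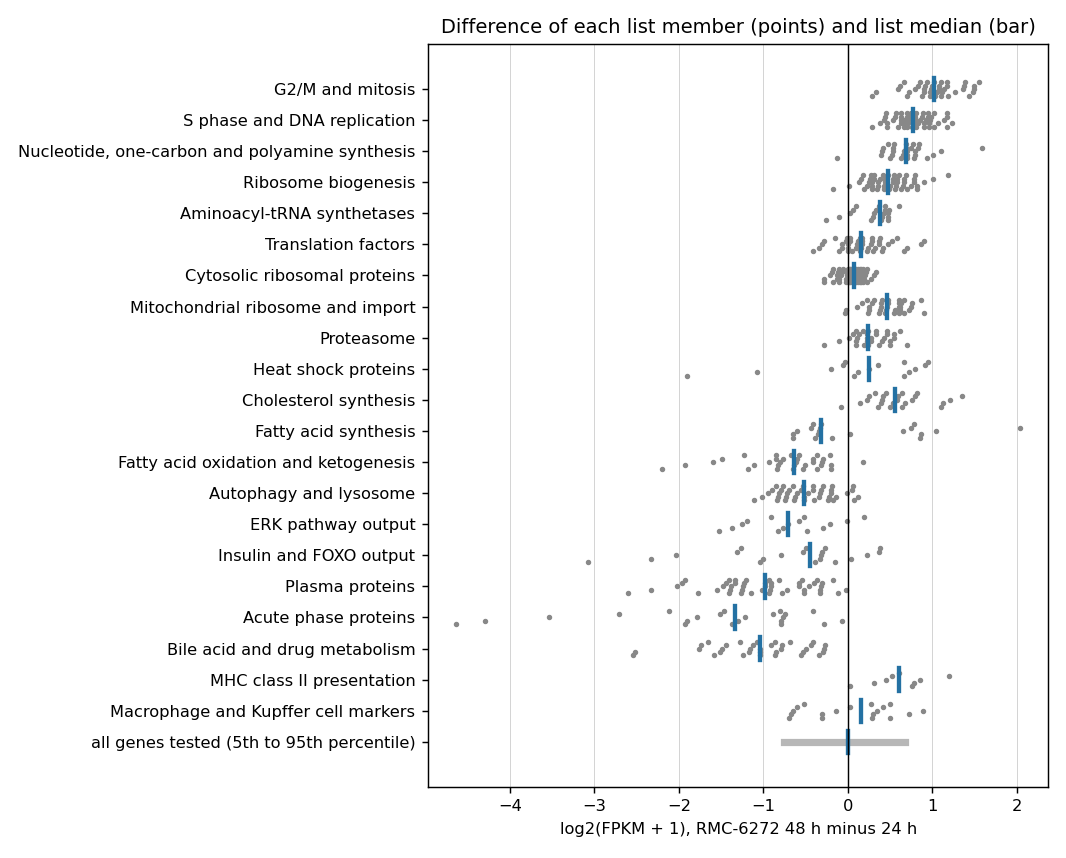
Difference in log2(FPKM + 1) between 48 h and 24 h for each tested member (grey points) of 21 gene lists, with the list median as a blue bar and, in the last row, the central range of all 12363 genes. All 40 mitotic and 52 S phase members lie right of 0, and all 47 plasma protein and 22 acute phase members lie left of it.

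Sterol and fatty acid synthesis differed from the cell cycle in that the samples at 48 h disagreed. The median of the 24 cholesterol synthesis genes relative to vehicle was -1.26, -1.24 and -1.40 at 24 h and -1.28, -1.21 and 0.44 at 48 h, so replicates 1 and 2 stayed at the 24 h level while replicate 3 was above vehicle. On average 23 of the 24 were higher at 48 h (median 0.56), and 4 had an unadjusted p under 0.05, against 7.69% of all genes. Without 48 h replicate 3 the median was 0.05 and the count 0. Idi1, which isomerises the isoprenoid precursor, was at 16.9, 8.296 and 9.08 FPKM in vehicle, 1.22, 0.976 and 1.705 at 24 h and 2.21, 2.26 and 13.2 at 48 h. Nsdhl, an enzyme of the late pathway, was at 29.1, 25.9 and 41.4 in vehicle, 6.15, 6.04 and 7.33 at 24 h and 7.94, 11.5 and 38.03 at 48 h. In both genes the groups did not overlap, but replicate 3 held most of the difference.

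The same sample led in Acly, which makes cytosolic acetyl-CoA, at 22.98, 20.8 and 27.1 FPKM at 24 h and 30.7, 31.4 and 86.7 at 48 h against 60.3, 52.4 and 58.1 in vehicle. Fasn (fatty acid synthase) was at 23.4, 17.7 and 27.9 and then 27.9, 34.1 and 66.4, against 65.6, 88.8 and 96.4. The medians of the 19 fatty acid synthesis genes relative to vehicle were -1.22, 0.00 and -0.99 at 24 h and -0.87, -0.70 and 0.31 at 48 h. The list's median difference between the times changed sign with a single sample, from -0.31 to 0.58 without 24 h replicate 2. The 48 h replicate 3 also had the highest red cell and the lowest macrophage marker sum of its group. The summed FPKM of red cell markers was 21.9, 12.6 and 555 in 48 h replicates 1 to 3 and 216, 199 and 108 in the 24 h samples. Their part in the lipid values was not tested.

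Lysosome and autophagy genes ran the other way. Of 42, 38 were lower at 48 h, with a median of -0.51. An unadjusted p under 0.05 was reached by 10, all lower, against 4.96% of all genes, and 16 did not overlap, against 9.3%. Their median above vehicle was 0.64, 0.64 and 0.38 at 24 h and 0.30, -0.03 and -0.07 at 48 h, which put 48 h replicates 2 and 3 at vehicle level. The count at that p was 17 without 48 h replicate 1 and 6 without 24 h replicate 2 or 48 h replicate 2. Ctsa (cathepsin A) fell from 125, 134 and 90.1 to 74.5, 53.4 and 36.4 FPKM, against 39.7, 55.7 and 39.4 in vehicle (difference -1.11, adjusted p 0.0486 over 20 samples). Atg14, the subunit that directs the lipid kinase VPS34 to autophagy, fell from 6.77, 4.49 and 5.25 to 3.13, 2.86 and 2.9004, and Mcoln1, a lysosomal calcium channel, from 6.51, 7.69 and 6.36 to 4.75, 3.203 and 2.89. Ulk1, the kinase that starts autophagy and an mTORC1 substrate, was at 7.89, 9.04 and 5.92 in vehicle, 18.9, 14.02 and 18.5 at 24 h and 14.4, 6.44 and 7.65 at 48 h. Its replicate 1 at 48 h overlapped the 24 h range and it did not pass. The promoters of Ctsa, Atg14, Cln3 and Mcoln1 are among those with CACGTG printed above.

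Secreted liver proteins were lower at 48 h without exception in direction. All 47 plasma protein genes and all 22 acute phase genes had a lower mean, with medians of -0.99 and -1.33. An unadjusted p under 0.05 was reached by 8 and 9 of them, all lower, against 4.96% of all genes. The plasma protein median above vehicle was 1.44, 2.75 and 1.10 at 24 h and 0.74, 0.26 and 0.90 at 48 h, and 24 h replicate 2 gave much of the gap. Without it the medians were -0.54 and -0.64, and the counts 3 and 6. Fga, Fgb and Fgg, the 3 chains of fibrinogen, fell together. Fgb was at 264, 199 and 186 FPKM in vehicle, 921, 1010.3 and 598 at 24 h and 327, 277 and 301 at 48 h. Fga went from 1023, 969.8 and 665 to 344, 261 and 394 and Fgg from 937, 1263 and 593 to 390.1, 310.4 and 436. The differences were -1.40, -1.45 and -1.24 on the log2 scale, with adjusted p of 0.0403, 0.0403 and 0.0496 over 20 samples, and all 9 values at 48 h were below those at 24 h.

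Saa1, a serum amyloid of the acute phase, had the largest fall of the genes that passed. Its values at 48 h were all under 1 FPKM, so it met the filter through the 24 h samples alone. It was at 5.25, 0.909 and 0.824 FPKM in vehicle, 28.8, 152 and 4.56 at 24 h and 0.934, 0.128 and 0.535 at 48 h. The 24 h samples spread widely, yet all lay above 48 h, and the 48 h samples were all below the highest vehicle value (-4.30 ± 0.81, adjusted p 0.0427 over 20 samples and 0.0779 over 24). Orm1, another acute phase carrier, was at 114, 1117 and 59.3 at 24 h and 15.96, 2.63 and 7.18 at 48 h (adjusted p 0.093 and 0.0633). Serpina1e and Serpina10, protease inhibitors, fell as well, with differences of -1.50 and -1.18 (adjusted p 0.0499 and 0.0446 over 20 samples). Xbp1, the transcription factor of the secretory stress response, fell from 154, 105 and 115 to 72.95, 53.3 and 54.2 FPKM, against 57.7, 50.1 and 52.1 in vehicle, and Derl3, which serves disposal of misfolded proteins, fell from 15.1, 4.904 and 6.4001 to 1.96, 1.88 and 1.005. Of the other genes of the ER stress list, which holds 20 and had a median of -0.30, 2 had an unadjusted p under 0.05, Dnajb9 and Edem1, both lower. Of all genes 4.96% were lower at that p.

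**Figure D4:**
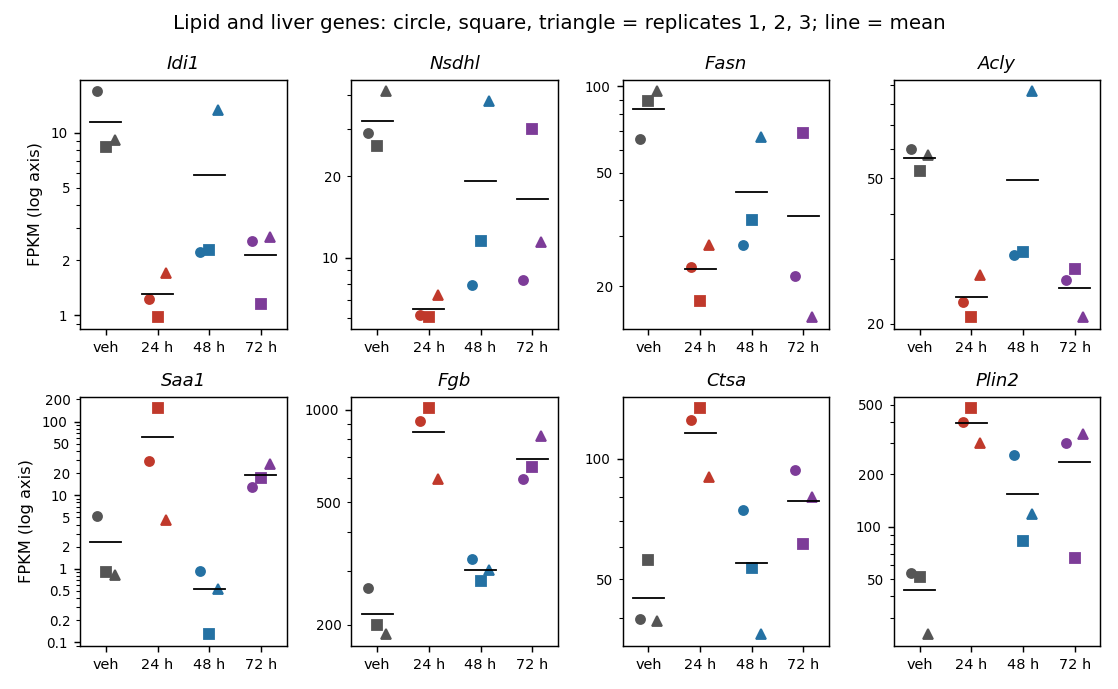
FPKM of 4 lipid synthesis genes (top) and 4 liver, acute phase and lysosome genes (bottom) on a log axis in each vehicle, 24 h, 48 h and 72 h sample, with the mean as a line. Among the lipid genes 48 h replicate 3 (triangle) stands above the other 48 h samples, while Saa1, Fgb and Ctsa are lower in all 3 samples at 48 h than in any at 24 h.

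The fatty acid oxidation list, Ahsg and Afp lay, on average, between their 24 h level and vehicle. Of 33 fatty acid oxidation genes, 32 were lower at 48 h (median -0.64), and 6 had an unadjusted p under 0.05, against 4.96% of all genes. Without 24 h replicate 2 the median was -0.22 and the count 1, and without 48 h replicate 2 they were -0.39 and 1. Their median stayed above vehicle in every 48 h sample, at 1.38, 0.35 and 1.06, against 1.18, 2.01 and 1.17 at 24 h, and the ranges overlapped. Plin2, the coat protein of lipid droplets, was at 54.1, 51.5 and 24.1 FPKM in vehicle, 398, 477 and 299.7 at 24 h and 258, 82.9 and 118 at 48 h. Ahsg (fetuin-A) was at 528, 308 and 73.5 in vehicle, 5982, 5910.5 and 3585 at 24 h and 3200.1, 1126 and 1408 at 48 h, so all 48 h samples were below 24 h and above vehicle. Afp was at 1291, 1869 and 1075 in vehicle, 10102, 4128 and 6391 at 24 h and 3415, 2402 and 1294 at 48 h, with 48 h replicate 3 inside the vehicle range. Neither Plin2, Ahsg nor Afp passed (adjusted p 0.3, 0.381 and 0.264).

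Bile acid and drug metabolism genes showed no stable order, and 24 h replicate 2 stood far above the other samples at 24 and 48 h. The list's median against vehicle was 0.08, 3.19 and 0.38 at 24 h and 0.19, -0.92 and 1.24 at 48 h, and 1 of 34 genes had an unadjusted p under 0.05. The median difference between the times was -1.04, and -0.07 without 24 h replicate 2. Cyp2e1, a pericentral cytochrome P450, was at 31.3, 1022 and 54.6 at 24 h and 31.6, 4.25 and 53.01 at 48 h. Pck1, the gluconeogenic enzyme restrained by insulin, was at 19.9, 1.71 and 0.675 in vehicle, 38.6, 497 and 30.6 at 24 h and 33.2, 1.003 and 14.2 at 48 h, and the ranges overlapped. The urea cycle and amino acid breakdown list had a median of -0.54, which was 0.03 without 24 h replicate 2. Alb was at 5555, 12906 and 3773 at 24 h and 3441, 2284 and 6867 at 48 h with overlapping ranges.

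Transcript readouts of ERK and of insulin signalling were also nearer vehicle in 48 h replicates 2 and 3, with replicate 1 close to 24 h samples. The ERK list median against vehicle was 1.04, 1.09 and 0.96 at 24 h and 0.88, 0.29 and 0.41 at 48 h. That of the insulin and FOXO list was 0.20, 0.82 and 0.33 at 24 h and 0.19, -0.16 and -0.11 at 48 h. Of the 15 genes of ERK pathway output tested, 14 were lower at 48 h (median -0.70). An unadjusted p under 0.05 was reached by 4, all lower, against 4.96% of all genes. That count was 1 without 24 h replicate 1 or 48 h replicate 2. Dusp6, the ERK phosphatase that ERK itself induces, was at 4.76, 4.23 and 3.74 FPKM in vehicle, 33.7, 27.5 and 20.3 at 24 h and 16.5, 8.82 and 8.15 at 48 h. Dusp5 was at 13.3, 7.01 and 6.296 and then 4.11, 2.01 and 1.28, against 1.55, 1.42 and 1.32. The groups did not overlap for either gene, and 48 h replicate 1 remained the highest of its group in both. Of the 20 genes of insulin and FOXO output, 16 were lower (median -0.44), 7 at an unadjusted p under 0.05, against the same 4.96%. That count was 1 without 48 h replicate 2 or 3 and 2 without 24 h replicate 2, where the median was -0.27. Txnip was at 56.9, 53.7 and 45.5 in vehicle, 167, 126 and 179 at 24 h and 133, 71.3 and 45.04 at 48 h, with replicate 1 at 48 h inside the 24 h range. Mouse Myc was at 2.02, 1.73 and 1.14 in vehicle, 6.32, 6.68 and 6.47 at 24 h and 5.76, 2.51 and 2.56 at 48 h. The 48 h replicates 2 and 3 were nearer vehicle and replicate 1 nearer 24 h (difference -0.77 ± 0.38, adjusted p 0.423). The transgene is human MYC, and how its reads were counted is not given in the sources used here.

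A few genes still differed from vehicle at 48 h at an adjusted p under 0.05, and more did at an unadjusted p under 0.05. Lower at the unadjusted p were 16 of 40 mitotic, 18 of 52 S phase and 11 of 29 nucleotide, one-carbon and polyamine synthesis genes. Of all 12363 genes 847 were. Higher were 12 of 33 fatty acid oxidation genes, beside 1077 of all genes. Igfbp5, an IGF-binding protein, was lower than vehicle at both times. It was at 15.7, 12.1 and 23.6 FPKM in vehicle, 2.31, 2.46 and 2.65 at 24 h and 4.47, 1.78 and 1.303 at 48 h. Its difference from vehicle was -2.34 at 24 h and -2.42 ± 0.32 at 48 h on the log2 scale (adjusted p 0.00056 and 0.0077), while 48 h minus 24 h was -0.08, 0.03 without 48 h replicate 2 and 0.17 without replicate 3, with a 95% interval of -0.75 to 0.58. Rap1gap, which switches off the small GTPase Rap1, was at 1.13, 1.42 and 1.24 in vehicle, 5.002, 5.08 and 4.31 at 24 h and 4.37, 3.16 and 3.26 at 48 h. The 48 h replicates 2 and 3 were below every 24 h sample and above every vehicle sample. At 48 h the gene was higher than vehicle by 1.02 ± 0.16 (adjusted p 0.028). Scimp, an adaptor protein of antigen-presenting cells, was at 1.22, 1.13 and 0.328 in vehicle, 2.78, 3.59 and 4.17 at 24 h and 4.71, 5.29 and 3.06 at 48 h and was higher than vehicle at 48 h by 1.51 ± 0.23 (adjusted p 0.028). In the 20-sample fit 5 genes were higher and 4 lower than vehicle at 48 h. All 9 had passed in the same direction at 24 h, which is a description, since both comparisons share the vehicle samples. The additional ones were Arhgef6, Tgfbr1 and Rap1gapos (antisense to Rap1gap, and not told apart from it without strand), and Abcd4, Ccng1 and Myo6. Abcd4, a transporter of vitamin B12 out of lysosomes, was at 11.5, 12.8 and 10.97 in vehicle, 3.51, 2.62 and 2.98 at 24 h and 2.35, 2.54 and 1.79 at 48 h. Ccng1 (cyclin G1, a p53 target) was at 45.2, 40.5 and 37.1 in vehicle, 23.6, 31.3 and 21.6 at 24 h and 14.5, 20.8 and 12.2 at 48 h, lower again at 48 h in every sample. The count of genes apart from vehicle at 48 h in the 24-sample fit was 0 to 96 as single samples were left out, the 96 without 48 h replicate 3.

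Crabp2, which carries retinoic acid, was under 1 FPKM in all 24 h samples and in 48 h replicate 1. It was at 23.4, 28.2 and 19.9 FPKM in vehicle, 0.112, 0.1602 and 0.345 at 24 h and 0.432, 5.16 and 1.14 at 48 h. All 48 h samples lay above 24 h and below vehicle. The mean at 48 h minus vehicle was -3.21 ± 0.66 on the log2 scale, which did not pass (adjusted p 0.06). L1td1, a protein derived from a LINE-1 element, was below the filter in these samples and was not tested. It was listed at 14.0, 10.5 and 12.9 FPKM in vehicle, at 0.215, 0.0381 and 0.203 at 24 h, and at 0.0720, 0.958 and 0.836 at 48 h. Tfrc, the transferrin receptor, was partway back in 48 h replicates 2 and 3 only, at 43.9, 36.4 and 82.1 in vehicle, 10.5, 6.45 and 8.33 at 24 h and 8.99, 21.1 and 29.98 at 48 h.

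**Figure D5:**
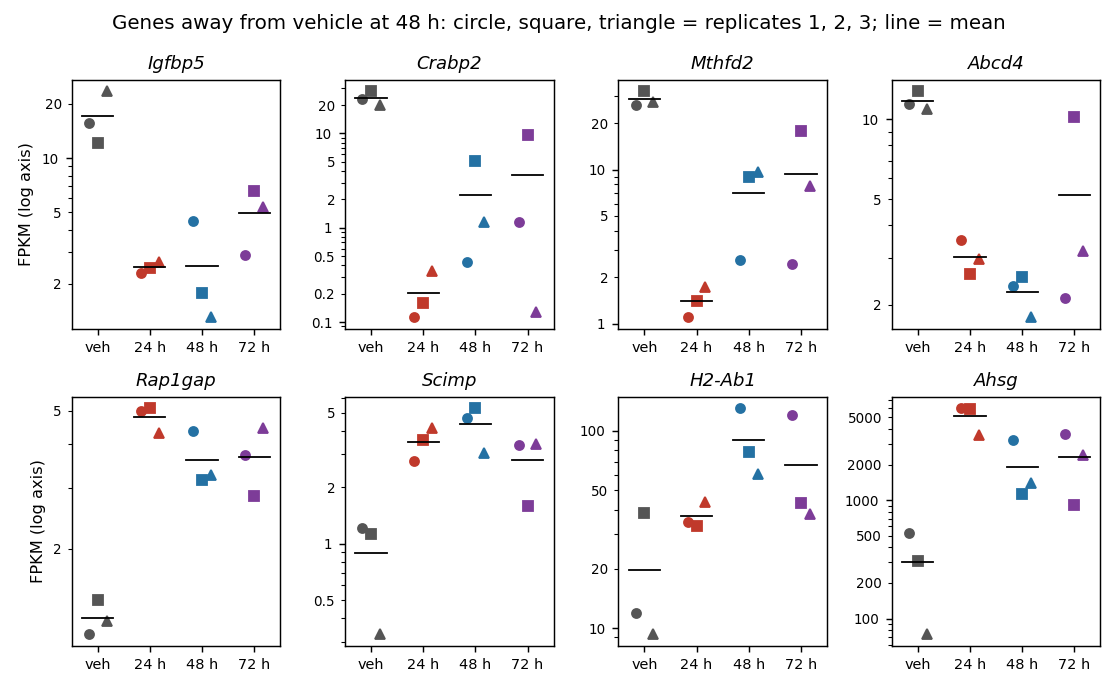
FPKM of 8 genes that were away from vehicle at 48 h (log axis) in each vehicle, 24 h, 48 h and 72 h sample, with the mean as a line. For Igfbp5, Abcd4, Rap1gap and Scimp no sample at 48 h overlaps the vehicle range, and H2-Ab1 is higher at 48 h than at 24 h.

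The MHC class I and class II lists had median differences of opposite sign, with few genes at an unadjusted p under 0.05 between the 2 times. All 9 MHC class II genes tested were higher at 48 h than at 24 h (median 0.60). All 9 were above vehicle at 48 h at an unadjusted p under 0.05, as were 1077 of all 12363 genes. Between 24 and 48 h 1 reached that p and 4 showed no overlap, against 7.69% and 14.3% of all genes. Their median above vehicle was 1.08, 1.21 and 1.69 at 24 h and 2.48, 2.05 and 1.38 at 48 h, so replicate 3 at 48 h was within the 24 h range. H2-Ab1, the beta chain of H2-A, was at 11.9, 38.3 and 9.31 FPKM in vehicle, 34.6, 32.9 and 43.5 at 24 h and 130.4, 78.6 and 60.4 at 48 h (48 h minus 24 h 1.19 ± 0.46, adjusted p 0.283). Cd74, the invariant chain, was at 115, 292 and 73.4 in vehicle, 363, 312 and 500.1 at 24 h and 965, 656 and 535 at 48 h. Within the shared code prefix the list's median difference was 0.00. Of the 22 class I genes, 18 were lower at 48 h (median -0.36). At an unadjusted p under 0.05, 1 was higher and 2 were lower, near the 7.69% and 4.96% of all genes. Without 24 h replicate 2 the median was -0.15 and 0 were lower at that p.

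Macrophage markers moved beside the class II genes in some samples. The summed FPKM of 20 macrophage and Kupffer cell markers was 755, 953 and 624 in vehicle, 1942, 1592 and 1637 at 24 h and 2498, 2202 and 830.5 at 48 h. Replicates 1 and 2 at 48 h exceeded every 24 h sample, and replicate 3 was within the vehicle range and was the lowest of its group for class II. Of 18 markers tested, 10 were higher and 8 lower at 48 h. Within the shared code prefix 3 were higher and 15 lower, with a median of -0.61. An unadjusted p under 0.05 was reached by 2, both higher, which is near the 7.69% of all genes. They were Fcgr1 (an Fc receptor) and Cx3cr1 (the fractalkine receptor). Fcgr1 was at 2.76, 3.35 and 1.51 in vehicle, 2.88, 3.24 and 3.13 at 24 h and 7.05, 9.25 and 4.199 at 48 h. No macrophage marker, 1 neutrophil marker and 1 T and NK cell marker were at 0 in all 6 samples, and the part of these cells in the class II values was not tested. Markers of other cells were low or uneven, and their sums are given for 24 h and then 48 h. Neutrophil markers summed to 52.5, 226 and 72.9 at 24 h and 48.3, 7.61 and 13.1 at 48 h, and T and NK cell markers to 9.96, 10.6 and 11.8 and 16.98, 18.03 and 10.8. Endothelial markers summed to 58.004, 81.6 and 58.2 and 84.5, 33.8 and 34.4, and stellate cell and fibroblast markers to 119, 214 and 152 and 159.9, 166 and 111. B and plasma cell markers summed to 8.002, 6.4998 and 12.7 and 15.4, 6.299 and 4.39, dendritic cell markers to 7.91, 7.84 and 9.34 and 13.4, 10.2 and 7.37, and cholangiocyte markers to 46.4, 45.4 and 34.2 and 41.4, 32.6 and 37.8. Cd274, which encodes PD-L1, was at 1.68, 2.58 and 0.504 in vehicle, 5.33, 2.799 and 5.76 at 24 h and 2.72, 3.81 and 2.003 at 48 h, with overlapping ranges.

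The remaining lists held few differences between the 2 times. Of all genes, 7.69% were higher and 4.96% lower at an unadjusted p under 0.05. None of the 28 interferon response genes tested reached an unadjusted p under 0.05, 1 of 40 mitochondrial respiration genes did (Cycs, higher), and none of 16 NRF2 targets did. Without 48 h replicate 1, 8 interferon response genes were higher at that p, with a median of 0.39 against 0.21, and without 24 h replicate 1, 4 were. Of 19 glycolysis genes 2 did, Hk2 and Ldha, both higher at 48 h. Ldha (lactate dehydrogenase A) was at 699, 1052 and 694 FPKM in vehicle, 369.9, 499 and 413 at 24 h and 665, 588 and 788 at 48 h. Of 21 p53 targets 3 did, all lower: Trp53inp1, Ccng1 and Sesn2. Sesn2, a stress-induced inhibitor of mTORC1, was at 11.5, 13.5 and 11.2 in vehicle, 8.68, 7.81 and 6.74 at 24 h and 5.38, 4.98 and 3.697 at 48 h, so the 48 h samples were below both other groups.

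Smaller lists gave the following counts at an unadjusted p under 0.05, beside 7.69% of all genes higher and 4.96% lower. Counts of 1 or 2 genes in lists of this size are near those shares. Of 20 aminoacyl-tRNA synthetase genes, which charge tRNAs for translation, 18 were higher at 48 h (median 0.38) and 4 reached that p: Cars, Farsa, Iars and Lars. That count was 0 without 48 h replicate 3. Of 17 hypoxia response genes 2 did, Mxi1 and Pdk1, both higher. All 18 liver transcription factor genes were lower (median -0.44), and Foxa3 and Xbp1 reached it. Of 20 gluconeogenesis and glycogen genes 18 were lower (median -0.44), with Pck1 at that p. Of 13 iron handling genes 11 were lower, with Cp (ceruloplasmin) lower and Tfrc higher at that p. Of 17 circadian clock genes Rora was lower and Wee1 higher, of 21 cytokine and checkpoint genes Tnf was lower and Cd276 higher, and of 15 fetal liver and tumour markers Afp was lower.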

How the data were processed

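Tumour RNA was sequenced by the authors, and 1 table of FPKM values per gene and sample was deposited. STAR 2.5, HTSeq 0.6.1 and the mouse build mm9 are named per the submitters' processing notes, and the gene lengths behind the FPKM are not given in the sources used here. FPKM carry no counts, so no count model was used. Genes were taken by name: 27 entries with a date for a name and 102 sharing a symbol with a more abundant entry were left out, and in 1588 entries the identifier and the name differed.

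The difference in log2(FPKM + 1) was tested with limma 3.58.1 in R 4.3.3 (two-sided, trended empirical Bayes, 1 mean per group, all 24 samples, Benjamini-Hochberg adjustment over 12363 genes). A pseudocount of 1 understates the change of low genes. The fit of 20 samples was set out beside it, but its use for naming genes was chosen after its results were seen. Named genes were drawn from the 15 largest rises and falls among those that passed, without overlap and with a mean of at least 5 FPKM in the higher group, up to 5 members of each list by smallest p, up to 10 genes that stayed changed, and a fixed panel. Cdk1, Plk1 and Mcm6, whose promoters are printed, and Itga6, Ezh2 and Srsf3 were chosen after their values were seen. The comparison, the 46 gene lists and the panel were chosen with earlier results of these data known. The lists are described by counts and medians, without a test. The fit was tested on simulated data. Alternatives were other pseudocounts, filters, scalings, sample sets, blocks, sample weights and each RMC-6272 24 h, RMC-6272 48 h and vehicle sample left out. Promoter windows came from RefSeq (GRCm38.p6), a different build from that of the table, matched by symbol.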

Additional observations from a re-analysis of the deposited data

How the results depend on the processing

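The count of 0 genes between 24 and 48 h (1564 at an unadjusted p under 0.05 in limma) became 14 with no filter, 38 with quantile normalization, 113 over 20 samples, 150 over 22 samples (added after seeing the data) and 2522 with array weights. It was 0 to 131 with 1 sample left out, and for the 20-sample count of 113 the range was 0 to 794. Genes that had passed at 24 h and returned numbered 0, and 11, 38, 112 and 2331 with no filter, quantile normalization, 20 samples and array weights, or 0 to 129 with 1 sample left out. The 3098 genes between 24 h and vehicle became 4726 over 20 samples and 6320 with array weights, and 1726 to 3094 with 1 sample left out. The 3 genes apart from vehicle at 48 h became 1 with a pseudocount of 0.1 or only the samples of the 2 groups, 12 with no filter, 9 over 20 samples, 161 with the code as a random block, 1586 with array weights and 8 with a filter over 9 samples (added later). They were 0 to 96 with 1 sample left out. With the replicate block they were 6, and the count between 24 and 48 h stayed 0 (1512 at an unadjusted p under 0.05). Replicate numbers did not pair the samples: the correlations of deviations were 0.05, -0.49 and -0.27. The medians of the genes defined at 72 h kept their sign in every alternative that gave a value, and the fit of only the contrast's samples gave none. No alternative left out a single 72 h sample. Igfbp5 between 24 and 48 h went from -0.08 to 0.03 and 0.17 without 48 h replicate 2 and 3, and was -0.45 without replicate 1. Gpc3 was between -0.45 and 0.12 with 1 sample left out. No list median changed sign under median-ratio or quantile scaling. Genes near 1 FPKM rest on few reads.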

Other observations

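Genes outside the lists also passed in the 20-sample fit, and those named here were chosen after their values were seen. Srsf3, a splicing factor, was at 52.8, 59.9 and 62.7 FPKM in vehicle, 24.3, 26.99 and 32.9 at 24 h and 42.8, 60.3 and 53.8 at 48 h (adjusted p 0.0403 in limma over 20 samples). Hmgn5, a nucleosome-binding protein, was at 33.5, 29.3 and 50.5 in vehicle, 5.93, 10.9997 and 14.2 at 24 h and 27.7, 34.98 and 38.3 at 48 h (adjusted p 0.0403). Ezh2, the methyltransferase of Polycomb complex 2, was at 5.75, 4.595 and 5.21 in vehicle, 1.93, 2.11 and 3.595 at 24 h and 3.67, 5.999 and 5.78 at 48 h (adjusted p 0.0499), and Lmnb1 (lamin B1) was at 82.4, 74.7 and 75.1 in vehicle, 16.9, 14.8 and 25.8 at 24 h and 29.7, 53.5 and 63.2 at 48 h (adjusted p 0.0466). In all 4 the samples at 48 h lay above those at 24 h. Itga6, the integrin subunit that had not passed at 24 h against vehicle, was at 1.48, 1.43 and 1.21 in vehicle, 0.787, 0.855 and 1.33 at 24 h and 2.102, 3.42 and 4.26 at 48 h, so every 48 h sample was above both other groups.

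The 3 samples at 72 h were uneven. The median of the mitotic list against vehicle was -1.25, -0.38 and -0.91 in the 3 samples at 72 h, beside -0.94, -0.44 and -0.37 at 48 h, and that of the S phase list was -0.97, -0.38 and -0.81. Aurka was at 21.5, 34.1 and 21.4 FPKM at 72 h and Birc5 at 27.9, 54.3 and 35.8. The autophagy and lysosome list stood at 0.41, 0.12 and 0.56 and the cholesterol list at -0.85, -0.08 and -1.28. Igfbp5 was at 2.904, 6.58 and 5.38 and Rap1gap at 3.73, 2.84 and 4.47. The difference between 72 and 48 h was not tested. In the 1 sample at 12 h, which has no replicate, the mitotic median against vehicle was -1.02, Aurka was at 24.3 FPKM and Igfbp5 at 4.15.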
